A study of Homo sapiens with 15 samples.

Results

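The comparison described here is that of FB23-2 with DMSO in NCI-H69, an established human line of classic small cell lung cancer that grows as floating clusters of neuroendocrine cells. It rests on 6 libraries of messenger RNA, 3 from cells that received FB23-2 and 3 from cells that received the solvent DMSO, out of 15 samples in the series and 9 with counts used here. All groups are of a single cell line, so they share its genotype. The labels read here state neither a dose nor a time of treatment. A further group of 3 libraries, H69 treated with CS2 (brequinar), entered the fit for its estimate of the spread and is named only beside genes described below. The 6 samples of H82 were not analysed here. The members of the comparison are all 19781 genes with enough counts to be tested, of 62754 in the table.

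FTO removes the m6A methyl mark from RNA, and FB23-2 is named by the series as an inhibitor of it. Classic small cell lung cancer cells keep a neuroendocrine programme set by transcription factors such as INSM1, with genes for secretory granules, neuropeptides, receptors and ion channels. ATF4 is a transcription factor of the basic leucine zipper class whose protein is made when amino acids run short or the endoplasmic reticulum is under load, and it turns on genes for amino acid uptake and synthesis and for several secreted factors.

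Total counts ranged from 31404658 to 45022633 in the DMSO libraries and from 32352835 to 43957839 in those of FB23-2. A count of 3 corresponded to 0.0666 to 0.0954 CPM (counts scaled to a common library size, by TMM) in the DMSO libraries and to 0.0719 to 0.0894 in those of FB23-2. FB23-2 replicate 2 stood apart from the other libraries of its group, with 10.97% of its counts from mitochondrial genes against 6.83% and 6.91%, while the DMSO libraries held 5.18% to 5.69%. Without it, 4938 genes were called higher and 5189 lower, against 5015 and 5275 with it. Nothing in the labels says that the libraries came from separate cultures, although the series calls them biological replicates, so p-values measure the spread between these libraries.

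The identity of the cells was checked against markers. All 6 libraries carried the neuroendocrine markers. INSM1 stood at 949, 798 and 831 CPM with DMSO and 624, 636 and 574 with FB23-2, a log2 fold change of -0.49 ± 0.08 (SE) with an adjusted p of 2.91e-05. CHGA (-0.55), SYP (-0.43), DLL3 (-0.60) and GRP (-1.99) were lower, and NCAM1 (0.31) and CHGB (0.29) were higher. Of the 21 tested genes of neuroendocrine identity 12 were lower and 4 higher (median log2 fold change -0.49), and their summed level was 5161 to 5475 CPM with DMSO and 4507 to 4818 with FB23-2. Among markers of other cell types, CD3E, COL3A1 and DCN had 0 counts in all 9 libraries, while others, such as CLDN5 and COL1A2, were present. Markers of blood cells summed to 4.13 to 4.71 CPM with DMSO and 3.43 to 4.48 with FB23-2. Those of endothelium summed to 46.1 to 50.2 and 9.56 to 12.6 CPM, most of it CLDN5, and those of fibroblasts to 58.5 to 60.3 and 14 to 21.1 CPM, most of it COL1A2. Those of squamous and airway epithelium summed to 32.2 to 40.1 and 2.09 to 2.53 CPM, most of it mucins, and all 5 tested were lower. The part of other cell types in the results below was not tested. In RNA from a whole culture, fewer cells that carry a transcript and less of it per cell cannot be told apart.

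FTO, the enzyme the compound is meant to inhibit, stood at 55.5, 56.6 and 58.7 CPM with DMSO and 55.3, 65.5 and 54.1 with FB23-2, so the groups overlapped (log2 fold change 0.04 ± 0.09, adjusted p = 0.754). Of the 19781 genes, 5015 (25.4%) were higher and 5275 (26.7%) lower with FB23-2 at an adjusted p under 0.05, together 52% of all genes tested. Those that differed by more than 2-fold were 1386 higher (7.01%) and 1868 lower (9.44%). The changes were nearly balanced in direction, with a median of -0.001 and 90% of genes between -1.57 and 1.25 on the log2 scale. Of the 10290 called genes 9948 had FB23-2 and DMSO libraries that did not overlap, and 342 had libraries that did. A call already calls for such separation in most genes, so this count is no separate support. The share among genes not called was not counted. Changes of more than 8-fold were fewer, 105 higher and 186 lower. In the plot of log2 fold changes against mean level, they lie mostly among genes of low level.

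**Figure D1:**
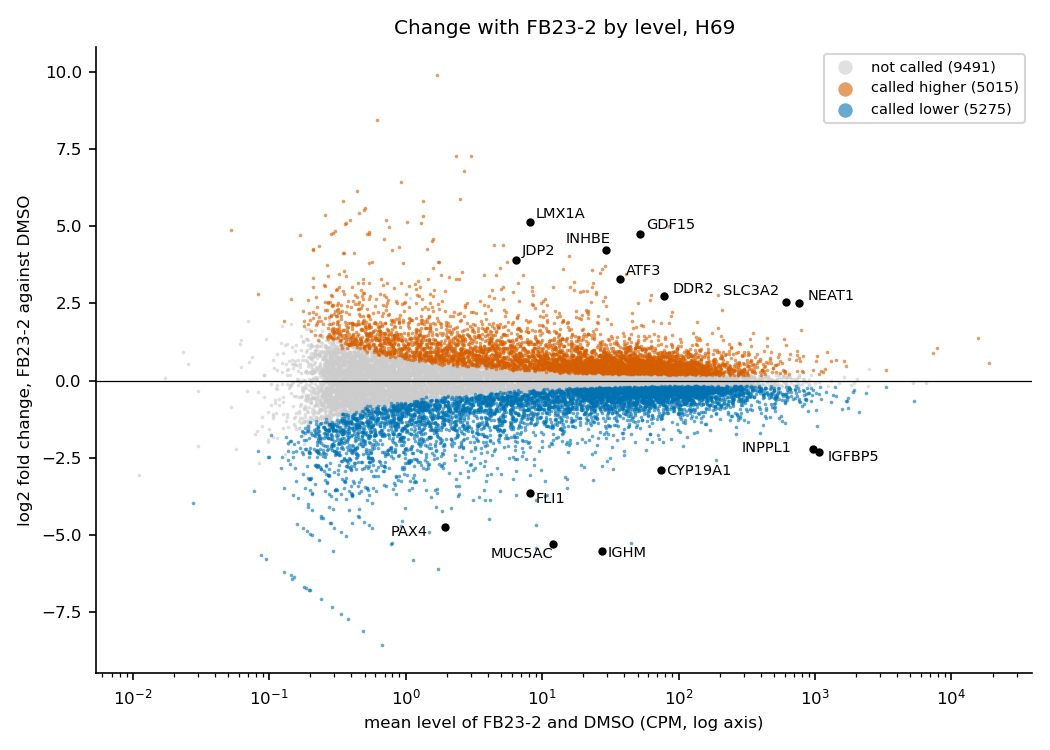
Each point is 1 of 19781 genes, with the mean of the FB23-2 and DMSO levels (CPM, log axis) across and the log2 fold change of FB23-2 against DMSO up. Orange points are the 5015 genes called higher and blue points the 5275 called lower at an adjusted p under 0.05. Labelled genes are described in the text.

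The listed genes that regulate other cells and other genes did not share this balance. Among 1757 tested transcription factors, receptors, secreted factors and transporters outside 3 stress lists (targets of ATF4, folding genes of the endoplasmic reticulum and targets of NRF2), 650 (37%) were lower and 420 (23.9%) higher, where all genes gave 26.7% and 25.4%. Within the lists, the lean to lower values was found in 495 transcription factors (207 lower, 104 higher), 355 receptors (132 lower, 72 higher) and 390 secreted factors (151 lower, 100 higher). These classes were put together from chosen families and do not hold every gene of their kind. Transporters and channels were evenly split, 160 lower and 163 higher of 537. The plot of shares by family shows where the families part from these figures.

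**Figure D2:**
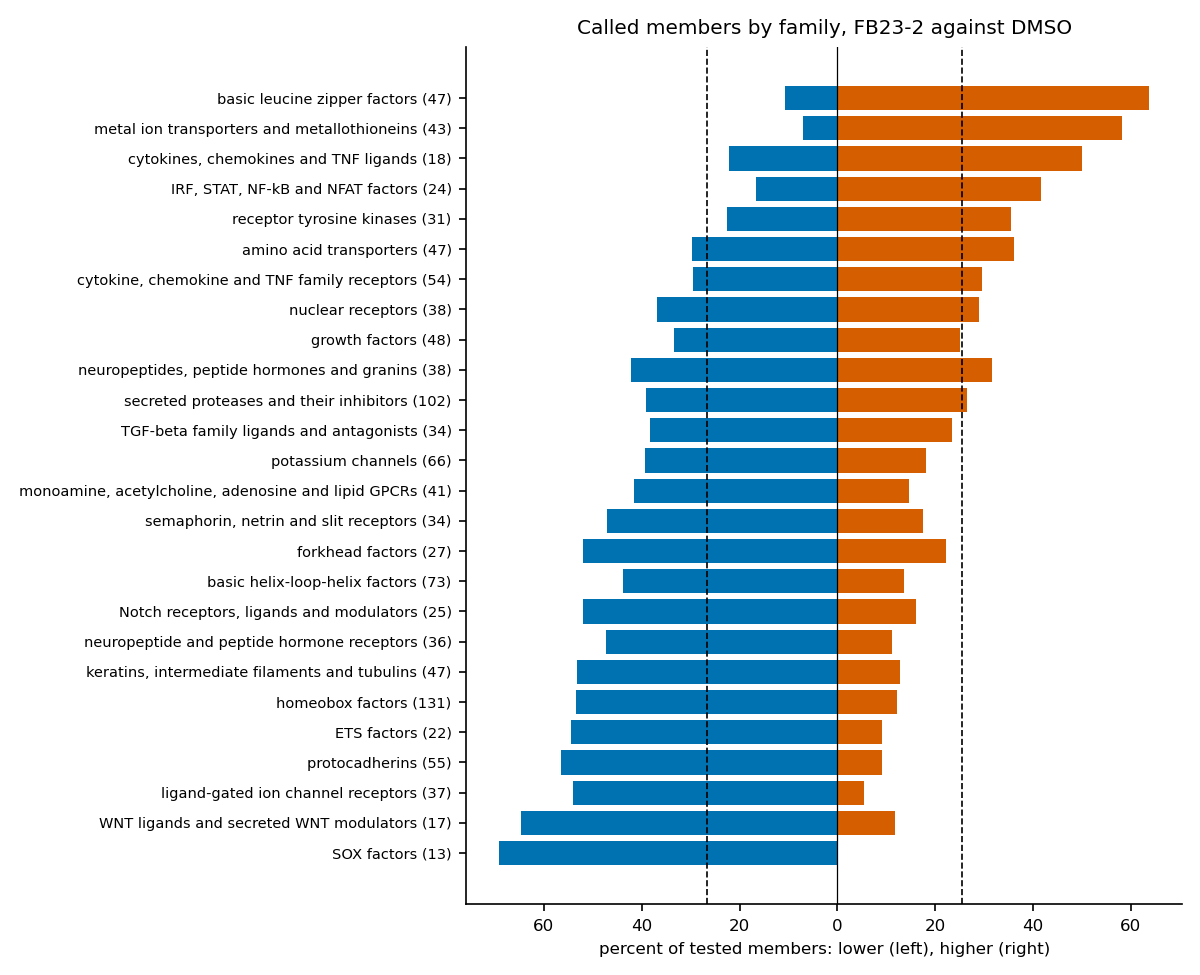
Bars give the percentage of tested members of each family called higher (orange, to the right) and lower (blue, to the left) with FB23-2, and the number tested stands beside each name. Dashed lines mark the 25.4% higher and 26.7% lower of all genes tested. Basic leucine zipper factors and metal transporters reach furthest to the right, and SOX factors furthest to the left.

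Basic leucine zipper factors leaned to higher values. Of 47 tested members 30 were higher and 5 lower (median 0.59). Among the 40 that are in no stress list 23 were higher and 5 lower (median 0.38). JDP2, which pairs with JUN and ATF proteins and is known as a repressor (ENSG00000140044, chr14:75427716-75474111, plus strand, all gene positions being on GRCh38), was at 1.03, 0.731 and 0.644 CPM with DMSO and 11.7, 11.7 and 12.8 with FB23-2. Its log2 fold change was 3.91 ± 0.22 (adjusted p = 2.05e-11), and every FB23-2 library lay more than 10-fold above every DMSO library. ATF3, a stress-induced member of the same family, was at 8.03, 6.65 and 6.15 CPM with DMSO and 63.8, 62.6 and 77.1 with FB23-2 (3.29 ± 0.13, adjusted p = 1.79e-13). It was also above CS2, by 1.59 (adjusted p = 7.83e-10). CREB5 (1.87) and NFIL3 (1.67), a repressor that binds sites of the clock-linked PAR factors, rose too, and DDIT3 (CHOP), which promotes cell death under stress of the endoplasmic reticulum, rose by 2.52, with 39.6% of its exon bases shared with other genes. ATF4 mRNA itself was at 374, 318 and 322 CPM with DMSO and 809, 920 and 833 with FB23-2 (1.34 ± 0.08, adjusted p = 6.88e-11), and with CS2 at 229 ± 12 CPM. Of its windows of 50 bases 17.9% also lie in other genes. Not all members followed. The MAF partner MAFG (0.05) and CREB1 (0.09) did not pass (MAFG passed at 0.17 (adjusted p = 0.0443) without FB23-2 replicate 2), and NRL, a factor of photoreceptors, was lower (-1.17).

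The letters of a composite site bound by ATF4 with C/EBP partners, TGATGNAA on either strand, were looked for in the 250 bases before each gene's start in the RefSeq table of promoters (GRCh38.p14), which matched 12577 of the tested genes by symbol. It was found in 30 of 784 genes that rose by more than 2-fold (3.83%), in 16 of 964 that fell by more than 2-fold (1.66%) and in 90 of 5456 not called (1.65%). Over all 12577 the share was 1.55%, and over all 27305 promoters of the table, which include genes not tested here, it was 3.19%. Of 32 matched ATF4 target genes, a list built from what is known of them, 5 held it (15.6%). A match describes letters only and shows no binding. Stretches of 70 bases from 3 genes that rose and 1 that fell are given, 5′ to 3′ on the strand of the gene, with the matched letters in capitals. RefSeq starts can differ from the GENCODE gene positions given elsewhere, and the stretch of CHAC1 lies inside its GENCODE gene:
CHAC1, chr15:40953241-40953310, plus strand: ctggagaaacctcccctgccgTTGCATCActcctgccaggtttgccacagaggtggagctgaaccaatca
ATF3, chr1:212565197-212565266, plus strand: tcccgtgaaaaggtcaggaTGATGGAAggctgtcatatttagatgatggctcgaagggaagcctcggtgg
FGF21, chr19:48755434-48755503, plus strand: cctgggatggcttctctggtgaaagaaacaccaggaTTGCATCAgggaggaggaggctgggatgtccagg
GRP, chr18:59219968-59220037, plus strand: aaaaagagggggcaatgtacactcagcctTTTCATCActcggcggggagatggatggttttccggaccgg
In CHAC1, FGF21 and GRP the match reads on the opposite strand, and in CHAC1 and FGF21 it has the same letters. CHAC1, an enzyme that breaks down glutathione, was at 5.71, 3.63 and 3.09 CPM with DMSO and 54.7, 52.3 and 55 with FB23-2 (3.71 ± 0.16, adjusted p = 7.45e-13). GRP, the gene of the gastrin-releasing peptide, holds the letters too and fell (-1.99).

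Homeobox factors, which set positional and neuronal identity, went the other way. Of 131 tested, 70 (53.4%) were lower and 16 (12.2%) higher, and the median was -0.52. PAX4, a factor of endocrine cell development, was at 3.47, 3.72 and 4.06 CPM with DMSO and 0.149, 0.144 and 0.117 with FB23-2 (-4.74 ± 0.27, adjusted p = 2.68e-11). CS2 left it at 4.38 ± 0.11 CPM, and the difference between the compounds was -4.96 (adjusted p = 1.10e-11). ISL2 (-3.18), a motor neuron factor with 17.5% of its exon bases shared with other genes, and HOXD12 (-2.41), HOXB5 (-1.88) and HOXB7 (-1.69), of the body-axis clusters, fell as well. POU3F2, a neuronal factor known from other small cell lines, did not pass (-0.01). LMX1A, a factor of dopamine neuron development (ENSG00000162761, chr1:165201867-165356715, minus strand), stood out in the opposite direction. It was at 0.5, 0.413 and 0.422 CPM with DMSO and 14.3, 18.9 and 14.2 with FB23-2, a rise of 5.14 ± 0.23 (adjusted p = 1.33e-12) that was the largest of the family. With CS2 it was at 2.42 ± 0.73 CPM, and FB23-2 exceeded CS2 by 2.71. HOXB9 was at 4.11, 2.58 and 3.42 CPM with DMSO and 22.8, 43.5 and 26.9 with FB23-2 (3.20 ± 0.24, adjusted p = 1.64e-07), the highest library being FB23-2 replicate 2, and 2.88 (adjusted p = 3.07e-15) without that library. OTX1 (1.37) also rose.

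**Figure D3:**
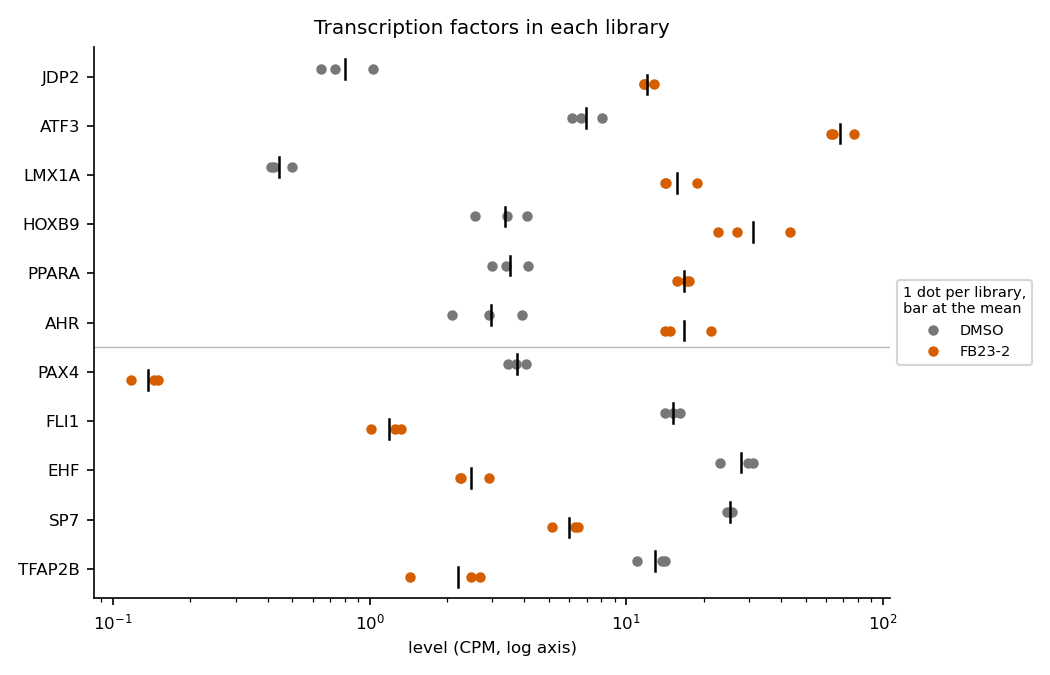
Each dot is 1 library (DMSO grey, FB23-2 orange) and each row a transcription factor, with the level in CPM on a log axis and a short bar at the mean of the 3 libraries. JDP2, ATF3, LMX1A, HOXB9, PPARA and AHR sit to the right with FB23-2, and PAX4, FLI1, EHF, SP7 and TFAP2B to the left. No row overlaps, which the rule that named these genes required.

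The HOX clusters are shown gene by gene in the plot of neighbouring genes, a view chosen after the values were seen. In the HOXB cluster 5 of 8 tested genes were lower and HOXB9 alone was higher. HOXB9 rose by 3.20, while its neighbour HOXB8 was at -0.22 (not called, but -0.67 (adjusted p = 0.0289) without FB23-2 replicate 2) and HOXB7 at -1.69. Of 9 tested genes in HOXD 6 were lower and 1, HOXD4 (0.84), was higher, but 80.5% of the exon bases of HOXD4 are shared with other genes, and its call was lost without DMSO replicate 1, at 0.68 (adjusted p = 0.0909), and without FB23-2 replicate 1, at 0.75 (adjusted p = 0.0649). Among the 6 lower, HOXD3 (-1.05) shares 74.1% and HOXD11 (-0.78) 21.4% of its exon bases with other genes. In HOXA 6 of 9 and in HOXC 3 of 7 were lower and 0 were higher. Of the lower HOXA genes, HOXA6 shares the most exon bases, 40.1%.

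**Figure D4:**
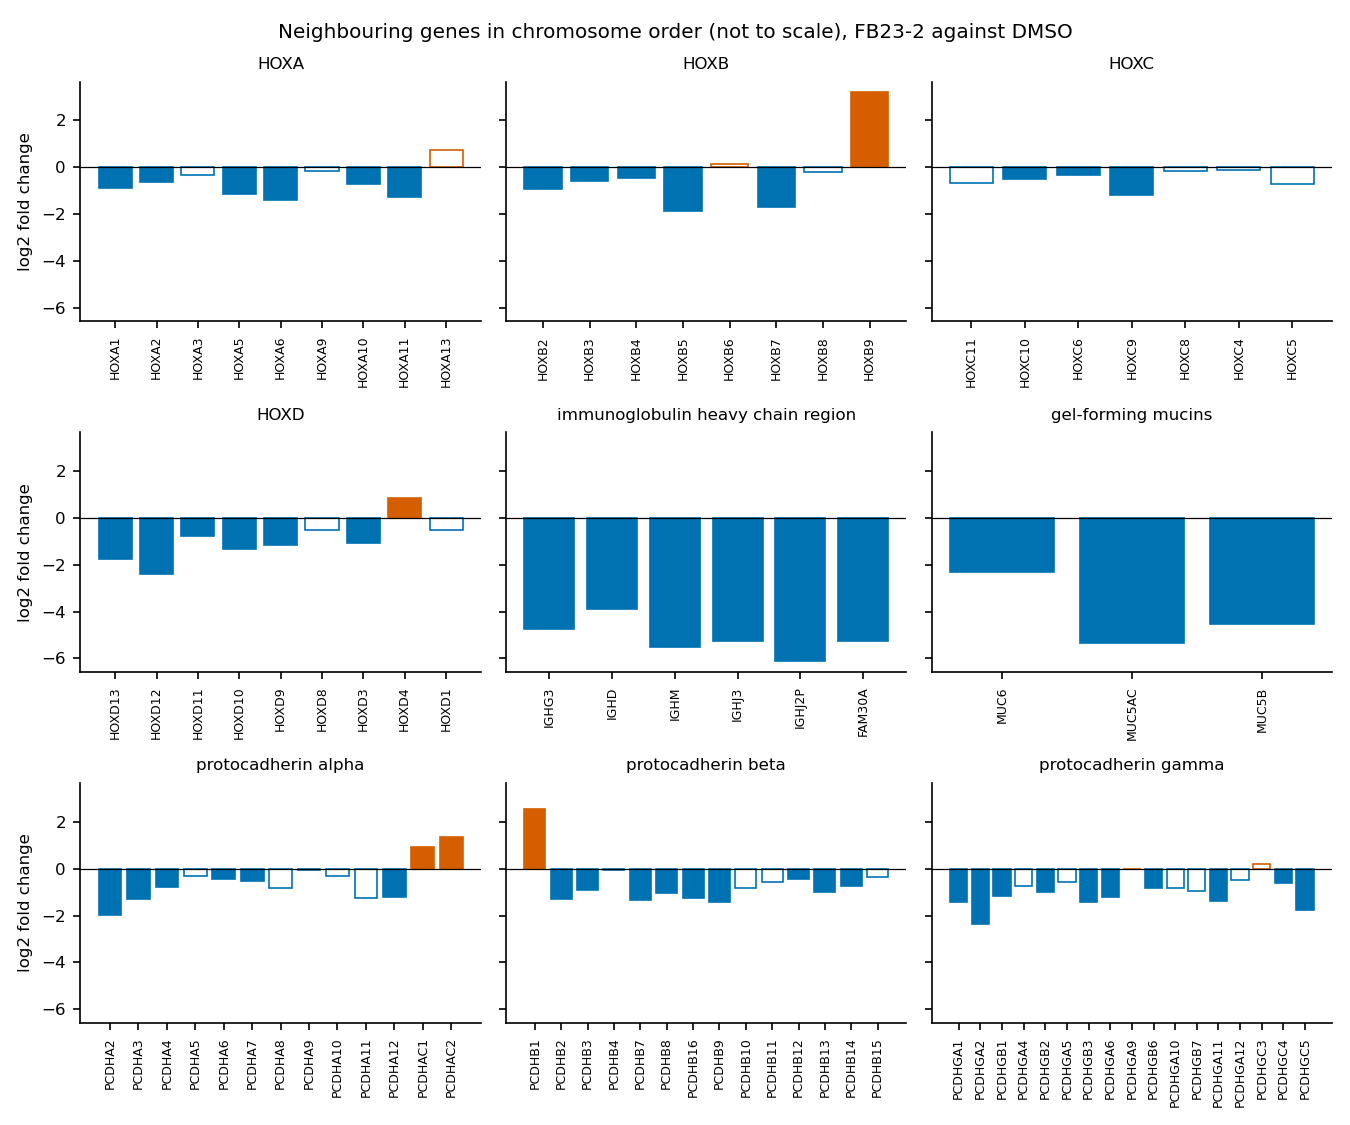
Bars give the log2 fold change of FB23-2 against DMSO for each tested gene of the 4 HOX clusters, the protocadherin clusters and 2 groups of neighbours, in the order of their annotated starts and not to scale. Filled bars passed at an adjusted p under 0.05 and open bars did not. HOXB9 rises to 3.20 in a cluster where 5 of 8 genes fell, and the genes of the immunoglobulin heavy chain and mucin panels fall to between -2.29 and -6.11.

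Basic helix-loop-helix factors leaned to lower values (32 of 73 lower, 10 higher, median -0.34). HES1, a repressor induced by Notch, was at 4.32, 4.17 and 4.55 CPM with DMSO and 0.656, 0.959 and 1.22 with FB23-2 (-2.19 ± 0.23, adjusted p = 1.97e-07). HES5 (-2.21) and ASCL2 (-3.07) fell too. AHR, the receptor for dioxin-like compounds, was at 3.92, 2.93 and 2.09 CPM with DMSO and 14.2, 21.3 and 14.8 with FB23-2 (2.50 ± 0.22, adjusted p = 3.75e-08), although 28.9% of the 50-base windows of its transcripts also lie in other genes. CYP1A1, the classical AHR target, rose from 0.9 ± 0.25 to 4.08 ± 0.36 CPM (2.19). MLXIPL, which senses glucose, and NHLH1, a neuronal factor, rose by 1.53 and 1.52.

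Of 13 SOX factors, regulators of progenitor states, 9 were lower and 0 higher (1 higher by limma-voom). SOX2 was at 389, 344 and 368 CPM with DMSO and 215, 273 and 197 with FB23-2 (-0.68 ± 0.09, adjusted p = 5.80e-06), and SOX4 (-0.76), SOX9 (-0.83) and SOX21 (-1.65) fell. For SOX2 and SOX9 FB23-2 and CS2 did not differ at the threshold (adjusted p = 0.334 and 0.356), while SOX4 was lower with FB23-2 than with CS2 (difference -0.96). Forkhead factors were lower in 14 of 27 and higher in 6. FOXI1, a factor of ionocytes, fell from 2.89 ± 0.73 to 0.0976 ± 0.12 CPM, with 0 counts in 1 of 3 FB23-2 libraries. FOXA2, a factor of foregut epithelium, fell by 0.97, and FOXO3, which acts when insulin signalling is low, rose by 0.59, with 27.8% of its windows shared with other genes.

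ETS factors were lower in 12 of 22 and higher in 2. FLI1, known from blood and endothelium (ENSG00000151702, chr11:128686535-128813267, plus strand), was at 14.2, 15.2 and 16.2 CPM with DMSO and 1.01, 1.32 and 1.25 with FB23-2 (-3.66 ± 0.16, adjusted p = 1.17e-12). EHF, an epithelial member, was at 23.2, 29.9 and 31.1 CPM with DMSO and 2.92, 2.25 and 2.27 with FB23-2 (-3.50 ± 0.16, adjusted p = 1.90e-12). For both genes the FB23-2 libraries lay far below those of DMSO. SP7 (-2.09) and SP6 (-1.87), factors of bone and tooth formation, and TFAP2B (-2.55), a neural crest factor, fell with FB23-2. With CS2 they stood at 37.2 ± 1.7, 65.5 ± 2.6 and 14.2 ± 0.46 CPM against 25.3 ± 0.48, 61.3 ± 3.7 and 13 ± 1.7 with DMSO.

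Nuclear receptors were mixed, 11 of 38 higher and 14 lower. PPARA, which drives fatty acid oxidation, was at 4.13, 2.99 and 3.4 CPM with DMSO and 17.1, 17.5 and 15.8 with FB23-2 (2.26 ± 0.14, adjusted p = 1.53e-10). PPARD (1.21), RORA (1.43) and the glucocorticoid receptor NR3C1 (1.28) rose, and NR2E3 (-3.39), NR0B2 (-1.47) and RXRG (-1.02) fell. Of 24 IRF, STAT, NF-kB and NFAT factors 10 were higher and 4 lower. Those lower were 2 when DMSO replicate 1, DMSO replicate 3, FB23-2 replicate 1 or FB23-2 replicate 3 was left out. RELB, of the non-canonical NF-kB arm, was at 1.97, 1.62 and 2.15 CPM with DMSO and 9.54, 7.72 and 9.68 with FB23-2 (2.21 ± 0.17, adjusted p = 3.38e-09), and its usual partner NFKB2 rose by 1.26. NFKB1, which encodes p105 and p50 of the canonical arm, was at 19.9, 18.9 and 20.3 CPM with DMSO and 8.74, 7.29 and 7.2 with FB23-2 and so fell (-1.35 ± 0.11, adjusted p = 7.95e-09).

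Among 31 receptor tyrosine kinases 11 were higher and 7 lower. DDR2, a receptor for fibrillar collagen (ENSG00000162733, chr1:162631373-162787400, plus strand), was at 18.4, 21.8 and 21.1 CPM with DMSO and 127, 151 and 133 with FB23-2 (2.75 ± 0.10, adjusted p = 7.54e-14). CS2 left it at 22.5 ± 1.7 CPM. FGFR4 (1.44), ERBB3 (1.48) and CSF1R (1.86) rose too. RET, the receptor of the GDNF family, was at 5.47, 4.9 and 5.15 CPM with DMSO and 0.596, 0.384 and 0.816 with FB23-2 (-3.13 ± 0.24, adjusted p = 2.27e-09). MET, the receptor of hepatocyte growth factor, did not pass (0.05, groups overlapping).

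Cytokine, chemokine and TNF family receptors were evenly split, 16 of 54 in each direction. TNFRSF9 (4-1BB), a costimulatory receptor of lymphocytes, had 3 counts in all DMSO libraries and 509 in those of FB23-2, or 0.0263, 0 and 0.0444 CPM with DMSO and 2.89, 4.72 and 6.27 with FB23-2. The ratio has a 95% interval of 60.3 to 863 from counting alone, and its adjusted p was 1.35e-09. NGFR, the low-affinity neurotrophin receptor, was at 0.684, 0.286 and 0.266 CPM with DMSO and 4.23, 5.11 and 4.81 with FB23-2 (3.51 ± 0.31, adjusted p = 1.46e-08), with 27.1% of its exon bases shared with other genes. TNFRSF12A, the receptor of TWEAK, rose by 1.82. IL7R fell from 3.31 ± 0.47 to 0.515 ± 0.19 CPM (-2.69), and IL13RA1, part of the receptor of interleukins of the type 2 response, was at 102, 105 and 106 CPM with DMSO and 46.8, 53.1 and 44.6 with FB23-2 (-1.11 ± 0.08, adjusted p = 1.24e-09).

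Receptors for neuropeptides and peptide hormones were lower in 17 of 36 and higher in 4. CCKBR, the receptor of gastrin and cholecystokinin, was at 11.7, 11.5 and 9.57 CPM with DMSO and 1.82, 1.8 and 1.95 with FB23-2 (-2.55 ± 0.16, adjusted p = 8.14e-11). KISS1R, the kisspeptin receptor, was at 16.3, 14.4 and 16.3 CPM with DMSO and 3.16, 3.19 and 3.29 with FB23-2 (-2.28 ± 0.13, adjusted p = 2.24e-11). With CS2 these stood at 11.9 ± 1.5 and 13.3 ± 0.95 CPM, well above FB23-2 (differences -2.68 and -2.04). BDKRB2, the bradykinin receptor, rose by 2.49, and SSTR2, the somatostatin receptor known as an imaging target in neuroendocrine tumours, did not pass (0.14).

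Ligand-gated channels for transmitters showed 20 of 37 lower and 2 higher. GRIK4, a kainate receptor subunit, was at 13, 9.38 and 11.5 CPM with DMSO and 1.46, 1.53 and 1.46 with FB23-2 (-2.93 ± 0.17, adjusted p = 4.72e-11). GRIN1, the obligate subunit of NMDA receptors, fell by 1.81, and GRIA2, an AMPA receptor subunit, did not pass (-0.01). Among receptors of monoamines, acetylcholine, adenosine, glutamate and lipids 17 of 41 were lower, with the metabotropic glutamate receptor GRM2 at -1.43, and 6 were higher, with the muscarinic receptor CHRM4 at 1.06. Of the receptors of axon guidance LINGO3 was at 35.8, 32.4 and 32 CPM with DMSO and 4.92, 4.84 and 5.22 with FB23-2 (-2.74 ± 0.12, adjusted p = 7.64e-13). With CS2 it stood at 5.21 ± 0.61 CPM, and the difference between the compounds did not pass (-0.06, adjusted p = 0.701). The Hedgehog co-receptor BOC (-2.04) and the WNT receptor FZD9 (-2.16) fell. The semaphorin, netrin and slit receptors were lower in 16 of 34 and higher in 6.

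Among secreted factors, 13 of the 34 tested ligands and antagonists of the TGF-beta family were lower and 8 higher, and members stood far apart in both directions. GDF15, a hormone of nausea and reduced food intake that stress induces (ENSG00000130513, chr19:18374731-18389176, plus strand), was at 4.66, 3.28 and 3.18 CPM with DMSO and 100, 125 and 79.1 with FB23-2 (4.77 ± 0.23, adjusted p = 8.83e-09). INHBE, a hepatic activin subunit (ENSG00000139269, chr12:57452323-57459280, plus strand), was at 3.11, 3.4 and 2.55 CPM with DMSO and 60.1, 57.2 and 50.8 with FB23-2 (4.22 ± 0.14, adjusted p = 2.93e-14). Its neighbour on chromosome 12, the subunit INHBC, was at 0.342, 0.254 and 0.0888 CPM with DMSO and 4.2, 3.16 and 2.3 with FB23-2 (3.84 ± 0.40, adjusted p = 1.73e-07). All 3 exceeded CS2 as well, by 3.21, 2.54 and 3.19. The subunit INHBA went down (-1.47), as did the BMP antagonist CHRD, which was at 3.42, 4.55 and 5.66 CPM with DMSO and 0.209, 0.455 and 0.379 with FB23-2 (-3.67 ± 0.30, adjusted p = 4.68e-09). BMP6 rose by 1.13.

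Growth factors were mixed, 12 of 48 higher and 16 lower. FGF21, a hormone of fasting and amino acid shortage, was at 0.605, 0.286 and 0.355 CPM with DMSO and 2.53, 3.04 and 2.77 with FB23-2 (2.73 ± 0.30, adjusted p = 3.30e-07). VEGFA, the main angiogenic factor, was at 32.9, 8.59 and 6.82 CPM with DMSO and 99.8, 118 and 111 with FB23-2, with DMSO replicate 1 well above the other DMSO libraries. Its log2 fold change was 2.77 ± 0.60 (adjusted p = 0.00833), and 3.84 (adjusted p = 1.23e-11) without that library. PDGFA (3.08) and HBEGF (1.81) rose, and FGF19 (-1.76) fell. FGF12, which is in the list by its family name and not as a secreted ligand, fell too (-1.60).

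**Figure D5:**
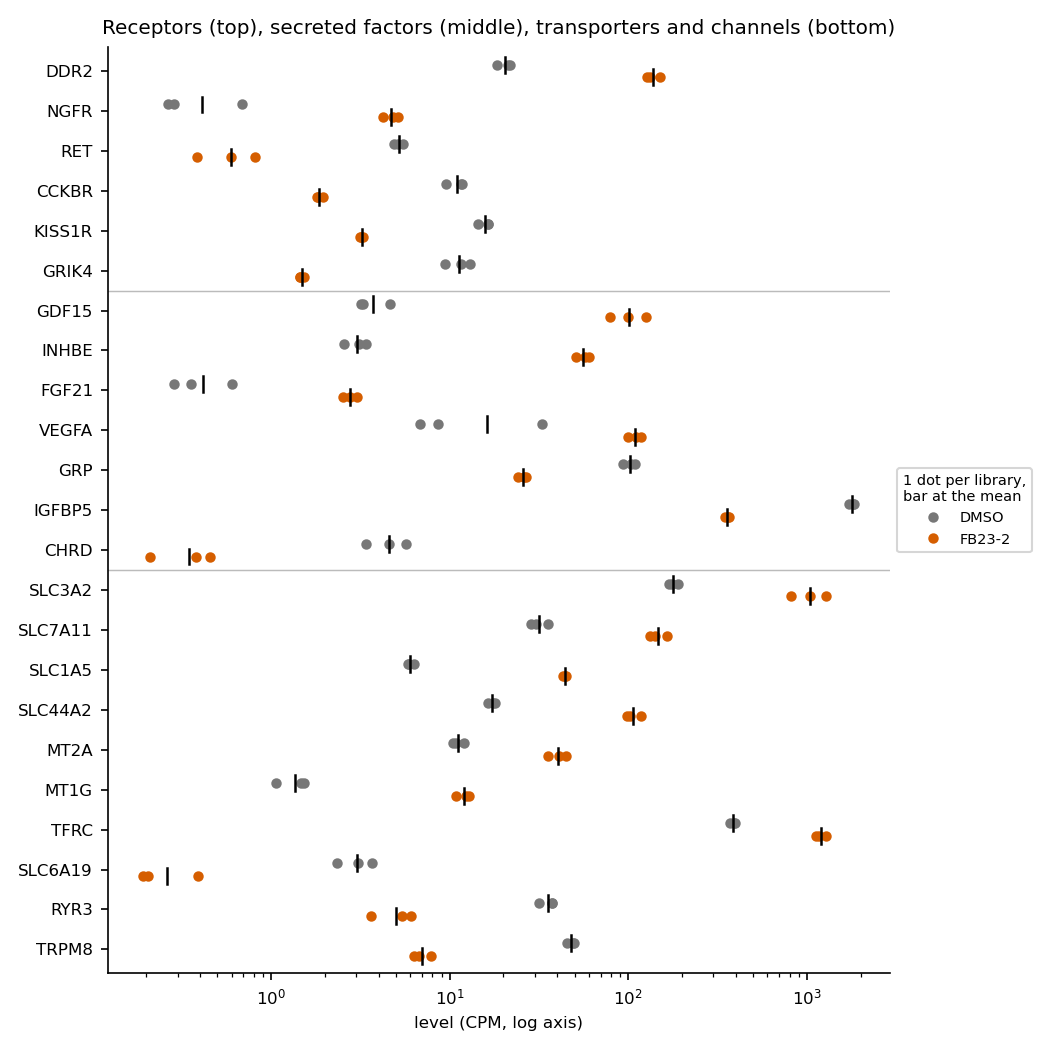
Each dot is 1 library (DMSO grey, FB23-2 orange) and each row a receptor, secreted factor, transporter or channel, with the level in CPM on a log axis and a short bar at the mean of 3 libraries. Rows are grouped by role. In every row shown the groups do not overlap, a condition of the naming rule for called genes other than markers. For VEGFA 1 DMSO library stands apart from the others of its group at 32.9 CPM.

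Neuropeptides and peptide hormones were lower in 16 of 38 and higher in 12. GRP, an autocrine growth peptide of small cell lung cancer, was at 109, 94 and 104 CPM with DMSO and 24.2, 26.9 and 26.2 with FB23-2 (-1.99 ± 0.09, adjusted p = 6.64e-13). CS2 left it at 129 ± 6.3 CPM, and the difference of FB23-2 from CS2 was -2.33 (adjusted p = 1.76e-13). ADM2, a vasoactive peptide, was at 2.24, 1.37 and 1.87 CPM with DMSO and 14.8, 14.7 and 15.5 with FB23-2 (3.03 ± 0.19, adjusted p = 1.22e-10), and STC2, a secreted glycoprotein induced by ATF4, and the granin SCG2 rose by 1.18 and 0.82. DDC (-2.59), which makes dopamine and serotonin, the vesicular monoamine transporter SLC18A1 (-3.18) and the dopamine transporter SLC6A3 (-1.87) fell.

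WNT ligands and secreted WNT modulators were lower in 11 of 17 and higher in 2. NOTUM, an enzyme that inactivates WNT, was at 51.7, 49.6 and 49.8 CPM with DMSO and 23.6, 23.1 and 22.6 with FB23-2 (-1.13 ± 0.09, adjusted p = 3.41e-09), FRZB, a decoy receptor, fell by 1.81, and WNT4 rose by 0.88. Of 120 cytokine, chemokine and TNF ligand genes only 18 had enough counts to be tested, and 9 were higher and 4 lower. Those higher were 5 without FB23-2 replicate 3. TNFSF15 was at 1.13, 0.954 and 0.977 CPM with DMSO and 3.58, 4.51 and 4.87 with FB23-2 (2.08 ± 0.21, adjusted p = 1.25e-07), and IL15 rose by 1.78. Among binding and matrix proteins IGFBP5, which binds insulin-like growth factors, was at 1848, 1717 and 1803 CPM with DMSO and 361, 349 and 368 with FB23-2 (-2.32 ± 0.07, adjusted p = 7.73e-15). It had the largest loss of CPM of all genes outside the mitochondrial genome. IGFBP2 (0.57), THBS1 (2.28) and the syndecan SDC3 (2.22) rose, and COL17A1, a collagen of hemidesmosomes, fell from 14.5 ± 2.1 to 1.75 ± 0.2 CPM (-3.05). Of 102 secreted proteases and inhibitors 40 were lower and 27 higher. SLPI, an inhibitor of neutrophil elastase, rose from 0.0711 ± 0.031 to 2.53 ± 0.51 CPM (5.10), as did the protease PRSS8 (3.43) and the lysosomal protease CTSL (2.39), and MMP10 fell to 2.5 ± 0.47 from 14.8 ± 0.86 CPM (-2.56).

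Amino acid transporters were split, with 17 of 47 higher and 14 lower, and without the members of stress lists 11 of 41 higher and 14 lower. SLC3A2, the shared heavy chain of several exchangers, was at 191, 175 and 169 CPM with DMSO and 1035, 814 and 1272 with FB23-2 (2.54 ± 0.12, adjusted p = 1.48e-10). SLC7A11, its cystine-importing partner, was at 28.4, 35.6 and 30.6 CPM with DMSO and 132, 142 and 164 with FB23-2 (2.21 ± 0.11, adjusted p = 3.17e-12). With CS2 all 3 libraries lay below those of DMSO, at 14.5 ± 1.6 CPM. SLC1A5, a glutamine transporter that is not in the stress lists (ENSG00000105281, chr19:46774883-46788594, minus strand), was at 6.32, 5.82 and 5.88 CPM with DMSO and 43, 45 and 44 with FB23-2 (2.87 ± 0.11, adjusted p = 9.55e-14), with 23.8% of its exon bases shared with other genes. The CS2 libraries held 7 ± 0.47 CPM of it. SLC6A19, a transporter of kidney and gut, was at 3.08, 3.69 and 2.35 CPM with DMSO and 0.388, 0.192 and 0.204 with FB23-2 and fell (-3.54 ± 0.32, adjusted p = 2.48e-08), and SLC38A5 fell by 2.13. SLC44A2, a choline transporter-like protein, was at 17.5, 16.3 and 18 CPM with DMSO and 102, 118 and 98.7 with FB23-2 (2.62 ± 0.10, adjusted p = 7.91e-14). Of sugar carriers SLC5A1, the sodium-glucose cotransporter of the gut, fell by 2.07 and SLC50A1 rose by 1.64.

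Metal transporters and metallothioneins were higher in 25 of 43 (58.1%) and lower in 3 (6.98%), where all genes gave 25.4% and 26.7%. Metallothioneins are small proteins that bind zinc and copper, and 5 of 6 tested in their cluster were higher. MT2A (ENSG00000125148, chr16:56608199-56609497, plus strand) was at 12.1, 10.8 and 10.4 CPM with DMSO and 35.7, 44.8 and 40.8 with FB23-2 (1.86 ± 0.11, adjusted p = 7.56e-11). MT1G was at 1.47, 1.53 and 1.07 CPM with DMSO and 10.8, 12.3 and 12.9 with FB23-2 (3.16 ± 0.20, adjusted p = 1.12e-10), and MT1H (3.83) and MT1X (3.31) rose from under 0.4 CPM. MT3, the neuronal member, did not pass, at 3.21, 1.91 and 1.8 CPM with DMSO and 1.52, 0.815 and 2.68 with FB23-2 (-0.48 ± 0.35, adjusted p = 0.268), with overlapping groups. Without FB23-2 replicate 3 it was called lower, at -0.98 (adjusted p = 0.0216). MT1G, MT1H and MT1X share 16.5%, 15.8% and 18.3% of their 50-base windows with other genes, so their counts may be mixed. With CS2 MT2A, MT1G, MT1H and MT1X stood at 9.07 ± 0.75, 1.02 ± 0.3, 0.106 ± 0.035 and 0.276 ± 0.036 CPM. TFRC, the transferrin receptor that brings iron into the cell, was at 369, 394 and 393 CPM with DMSO and 1177, 1125 and 1284 with FB23-2 (1.64 ± 0.08, adjusted p = 3.69e-12). The zinc exporter SLC30A4 rose by 1.89, and the zinc importers SLC39A6 (-0.09) and SLC39A7 (-0.02) did not pass, although SLC39A6 did without FB23-2 replicate 2, at -0.18 (adjusted p = 0.0421). SLC39A3 fell by 0.54.

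The upstream stretches of 3 metallothionein genes in the RefSeq table are given because these genes rose together and lie in 1 cluster. They were searched on both strands for TGCNCNC, the core letters of the metal response element that the zinc-sensing factor MTF1 is known to bind, a motif chosen after the values were seen. They end at the base before the RefSeq start, with the matched letters in capitals. That start lies inside the GENCODE gene for MT2A and MT1X, so the stretch of MT2A lies within the gene and that of MT1X runs into it:
MT2A, chr16:56608414-56608583, plus strand: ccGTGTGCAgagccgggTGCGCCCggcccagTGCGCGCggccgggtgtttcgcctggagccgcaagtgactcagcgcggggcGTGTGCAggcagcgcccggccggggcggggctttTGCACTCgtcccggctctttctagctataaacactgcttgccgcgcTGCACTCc
MT1H, chr16:56669634-56669813, plus strand: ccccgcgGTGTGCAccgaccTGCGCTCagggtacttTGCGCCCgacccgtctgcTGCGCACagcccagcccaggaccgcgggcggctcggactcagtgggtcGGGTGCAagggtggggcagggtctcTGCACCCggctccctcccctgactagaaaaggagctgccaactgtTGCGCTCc
MT1X, chr16:56682310-56682469, plus strand: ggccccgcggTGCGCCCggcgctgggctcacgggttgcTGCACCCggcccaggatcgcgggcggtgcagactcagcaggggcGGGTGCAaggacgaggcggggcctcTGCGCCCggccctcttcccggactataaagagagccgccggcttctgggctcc
The stretches hold 6, 7 and 4 matches. Any match is common, in 56.1% of the 12577 promoters, but 4 or more in 250 bases were found in 255 (2.03%). The cut-off of 4 equals the lowest count of the 3 stretches, and their genes were picked among those that rose. The 2.03% therefore does not set these genes apart. The share with 4 or more was 1.66% among genes that rose by more than 2-fold and 2.11% among those not called.

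Channels moved in both directions. Sodium channel subunits SCN3B and SCN4A rose, SCN3B at 4.34, 3.82 and 3.69 CPM with DMSO and 28.4, 35.3 and 27.8 with FB23-2 (2.95 ± 0.15, adjusted p = 4.82e-12) and SCN4A by 2.98. The anion channel BEST1 was at 1.53, 1.59 and 2.18 CPM with DMSO and 26.6, 31.5 and 30.9 with FB23-2 (4.05 ± 0.16, adjusted p = 1.52e-13), with 14.2% of its exon bases shared. RYR3, a calcium release channel, was at 31.5, 37.2 and 37.2 CPM with DMSO and 6.05, 3.64 and 5.39 with FB23-2 (-2.82 ± 0.15, adjusted p = 1.59e-11), and the P/Q-type calcium channel CACNA1A (-1.72) and the epithelial sodium channel SCNN1A (-1.36) fell. TRPM8, the cold and menthol receptor, was at 45.3, 49 and 49.6 CPM with DMSO and 7.9, 6.3 and 6.76 with FB23-2 (-2.78 ± 0.11, adjusted p = 1.79e-13). Potassium channels were lower in 26 of 66 and higher in 12, with KCNJ11, of the channel that couples ATP to insulin release, at -1.32 and KCNG1 at 1.60. AQP4, a water channel, rose to 14.8 ± 5.1 CPM from 5.14 ± 0.91 (1.53) but was at 0.397 ± 0.24 CPM with CS2, so the compounds lay on opposite sides of DMSO.

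Adhesion genes leaned to lower values (105 of 257 lower, 61 higher). Protocadherins, which give neurons their cell-surface codes, were lower in 31 of 55 and higher in 5 (median -0.79). In the alpha cluster the C-type genes PCDHAC1 (0.95) and PCDHAC2 (1.36) rose, while 6 of 11 variable genes were lower and 0 higher. In the beta cluster 9 of 14 and among variable gamma genes 8 of 14 were lower. Of 3 C-type genes of the gamma cluster 2 were lower and 0 higher. The alpha and gamma genes share their last exons. The share of windows that lie in other genes ran from 23.1% to 65.2% over the tested alpha genes. It ran from 34.0% to 51.3% over the gamma genes and from 1.4% to 49.3% over the beta genes. Counting may therefore mix genes in all 3 clusters. E-cadherin (CDH1) was at 8.26, 7.35 and 7.59 CPM with DMSO and 17.7, 22.1 and 17.8 with FB23-2 (1.31 ± 0.13, adjusted p = 4.74e-08). CDHR1, a cadherin of photoreceptors, rose by 2.47. Notch genes were lower in 13 of 25 and higher in 4. NOTCH1 was at 27.1, 23.1 and 27.5 CPM with DMSO and 5.34, 4.17 and 6.21 with FB23-2 (-2.31 ± 0.15, adjusted p = 1.53e-10), and the ligand JAG1 rose by 0.84. Keratins, other filament genes and tubulins were lower in 25 of 47 and higher in 6, with the basal keratin KRT15 at -2.43. The log2 fold changes of this list ran from -3.55 to 5.82. By more than 2-fold 13 were lower and 3 higher.

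Of the largest rises and falls over all genes, several belong to none of these groups. PTPRN, a protein of dense-core vesicles and an autoantigen of diabetes, was at 5.16, 3.78 and 3.53 CPM with DMSO and 43.1, 57 and 53.4 with FB23-2 (3.62 ± 0.15, adjusted p = 5.17e-13). ULBP1, a ligand that marks stressed cells for natural killer cells, was at 2.45, 1.84 and 2.07 CPM with DMSO and 22.4, 34.2 and 22.6 with FB23-2 (3.63 ± 0.18, adjusted p = 4.45e-12). IGFN1, a protein of muscle sarcomeres, rose from 0.0466 ± 0.048 to 5.32 ± 0.74 CPM, and LARP6, an RNA-binding protein of collagen mRNAs, by 4.41. NEAT1, a nuclear long non-coding RNA, was at 183, 259 and 243 CPM with DMSO and 1880, 804 and 1234 with FB23-2 (2.51 ± 0.35, adjusted p = 9.74e-04). Its FB23-2 libraries differed by more than 2-fold, the log2 fold change was 2.17 (adjusted p = 0.000709) without replicate 1 and 2.77 (adjusted p = 0.000536) without replicate 2, and FB23-2 and CS2 did not differ at the threshold (adjusted p = 0.106). CYP19A1 (aromatase), which makes estrogens (ENSG00000137869, chr15:51208057-51338610, minus strand), was at 126, 131 and 137 CPM with DMSO and 16.7, 17.2 and 18.6 with FB23-2 (-2.91 ± 0.09, adjusted p = 8.72e-15). INPPL1, a phosphoinositide phosphatase, fell from 1603 ± 50 to 343 ± 55 CPM (-2.23). IGHM, the constant region of the immunoglobulin mu heavy chain (ENSG00000211899, chr14:105851705-105856218, minus strand), was at 55.3, 51.2 and 55 CPM with DMSO and 1.31, 1.01 and 1.22 with FB23-2 (-5.52 ± 0.17, adjusted p = 7.73e-15), and the gel-forming mucin MUC5AC at 20.7, 22.2 and 27.7 CPM with DMSO and 0.596, 0.455 and 0.729 with FB23-2 (-5.32 ± 0.20, adjusted p = 1.52e-13). PTPRC, which marks all white blood cells, was below 1.7 CPM in all 6 libraries and was itself called lower. Its log2 fold change lay between -1.24 and -1.03 over the alternatives, and its call was lost against a fold of 1.5. Of 3 tested markers of blood cells 2 were lower and 1 was higher. Whether blood cells had a part in the fall of IGHM was not tested.

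FB23-2 and CS2 were compared at doses that are not known to match. Over all genes 59.6% differed between them at an adjusted p under 0.05, a share that gives the background for the differences quoted above. That comparison uses the same FB23-2 libraries as the one with DMSO, so they are not independent.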

How the data were processed

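Poly(A) RNA was sequenced from H69 cells treated with DMSO, CS2 or FB23-2, with 3 libraries in each group. The authors deposited raw read counts per Ensembl gene ID for 62754 genes, made on hg38, as the submitters' processing notes name it. Which aligner, counter, annotation and strand setting they used is not given in the sources used here. Column names ending in FB23 were taken as the FB23-2 samples of the labels.

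Counts were tested with edgeR 4.0.16 (R 4.3.3): genes were kept by filterByExpr (minimum count 10, minimum total 15), libraries scaled by TMM, and a robust quasi-likelihood test was fitted over all 9 libraries, with Benjamini-Hochberg adjustment over 19781 genes and a threshold of 0.05. CPM values use the TMM-scaled library sizes, ± is the SD over 3 libraries after a CPM level, and the SE after a log2 fold change. CPM is not scaled by gene length, so levels were not compared between genes. Gene symbols came from the reference table, with 42343 IDs matched to a symbol, and positions (GRCh38) from GENCODE release 29, which held 58261 of the IDs. Overlap with other genes was measured as the share of exon bases covered by another gene and as the share of 50-base transcript windows found in other genes. Counting intervals are 95% intervals and cover counting error only. Replicate pairs differed by more than sampling noise, with a chi-square per degree of freedom of 4.21 to 9.19 in DMSO pairs, 7.42 for FB23-2 replicates 1 and 3, and 50.09 and 48.05 for the pairs with FB23-2 replicate 2. The code was tested on simulated data.

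The members and gene lists were chosen with earlier results of these data known. Genes were named by a rule: markers, the 15 largest rises and falls with a mean of at least 5 CPM, the 10 largest changes of CPM each way, and in each list up to 5 called genes each way with a mean of at least 1 CPM plus 2 not called, of which a part is printed. Apart from markers, called genes named by the rule had to have FB23-2 and DMSO libraries that did not overlap. Their lack of overlap is therefore no separate result. HOXB8, HOXD4, MT3 and MUC6 lie outside it and were chosen after their values were seen. So do HOXA6, HOXD3, HOXD11, IGHG3, IGHJ3, IGHJ2P and the immunoglobulin variable segments, which come from the sets of neighbouring genes. Those from the sets were not among the 166 genes followed under the alternatives. Alternatives covered scaling, filters, DESeq2 1.42.0, limma-voom (limma 3.58.1), the libraries fitted, a replicate block, mitochondrial genes, each library left out and a fold threshold.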

Additional observations from a re-analysis of the deposited data

How the results depend on the processing

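Of 16 alternatives, a test against a fold of 1.5 (edgeR glmTreat) moved the counts of called genes by more than 1.5 times, to 1425 higher and 1817 lower. Leaving out 1 library gave 4304 to 4938 genes higher and 4491 to 5189 lower. Library numbers gave no sign of pairing over all tested genes. DMSO and FB23-2 libraries of the same number had correlations of 0.011, 0.021 and -0.016 between their deviations from the group means. Correlations over all genes cannot show a pairing that touches only part of them. A fit with the replicate block called 5205 genes higher and 5493 lower. DESeq2 called 5043 higher and 5123 lower, and limma-voom 5032 and 5380. Of 166 genes named, 150 kept their call under all 16 alternatives, 11 changed it with the fold threshold alone, and HOXB8, HOXD4, MAFG, MT3 and SLC39A6 changed it when 1 library was left out. The named genes were largely picked for large changes in the main fit, so these numbers do not describe the other called genes. No named gene that passed reversed its direction. Among small counts of list members, basic leucine zipper factors lower were 3 without DMSO replicate 3, peptide receptors higher were 2 without FB23-2 replicate 1, and WNT genes higher were 1 without DMSO replicate 3 or FB23-2 replicate 1. Ligand-gated channels higher were 1 without any single DMSO library, without FB23-2 replicate 2 or 3, and with no filter on low counts. SOX factors higher were 1 without DMSO replicate 2, without FB23-2 replicate 1 and in a fit of 6 libraries. The median of the cytokine list was 0.63 and became -0.07 over the 7 genes with at least 1 CPM, of which 3 were higher. That of nuclear receptors was -0.09 and became 0.01 without DMSO replicate 1. The causes of these changes were not tested. For genes of a few counts, such as TNFRSF9 and IGFN1 with DMSO, depth limits how well the fold is known.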

Other observations

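Several of the largest falls were in genes that lie side by side, sets that were chosen after the values were seen. In the immunoglobulin heavy chain region, 6 tested genes over 168.1 kb fell, with a median log2 fold change of -5.26. They were 3 constant region genes, 2 joining segments (1 of them a pseudogene) and FAM30A. The constant region gene IGHG3 shares 45.8% of its windows with other genes. It and the joining segments IGHJ3 and IGHJ2P held only 7, 4 and 5 counts over the FB23-2 libraries. The joining segments lie on the same strand as the constant region gene IGHM. Whether the 6 falls are separate was not tested. FAM30A, a long non-coding RNA of that region, was at 83.9, 86.2 and 90.5 CPM with DMSO and 2.8, 1.25 and 2.86 with FB23-2 (-5.26 ± 0.29, adjusted p = 1.98e-07). IGHD, the delta constant region, fell by 3.89. With CS2, FAM30A stood at 21 ± 5.9 CPM and IGHM at 12.4 ± 2.9, between DMSO and FB23-2. Of 11 tested variable segments of the same locus 1 was lower and 1 higher. Their levels were low, with DMSO means from 0.24 CPM (IGHV3-32) to 3.49 CPM (IGHV4-34). The share of their windows found in other genes ran from 0.0% (IGHVIII-38-1) to 71.5% (IGHV3-33), so counting may mix them. Low levels and shared windows limit what these segments can show about a fall.

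The gel-forming mucin genes MUC6, MUC5AC and MUC5B, which encode the polymers of mucus, lie within 249.4 kb on chromosome 11 and all fell. MUC6 was at 61.7, 70.7 and 67.7 CPM with DMSO and 14.7, 13.1 and 13.1 with FB23-2 (-2.29 ± 0.12, adjusted p = 8.18e-12), and MUC5B fell by 4.51. Of 4 neighbouring genes 1 was lower and 0 were higher, with a median of -0.03. PERCC1 (-5.44) and CCDC154 (-3.70), within 13.5 kb of each other, fell, with 23.6% of the exon bases of CCDC154 shared with other genes. Of their 4 neighbours 1 was higher and 1 lower.

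Long intergenic RNAs were called higher less often than all genes, 213 of 1281 (16.6%) against 25.4%. They were called lower in 387 (30.2%), where all genes gave 26.7%. Protein-coding genes were 29.2% lower and 28.8% higher of 14037, so the lower shares of the 2 types were close. Antisense genes were 18.5% lower and 17.9% higher of 1446.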
